A study of Mus musculus with 477 samples.

Results

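The ribosomal protein genes of the cytosolic ribosome were examined in single luminal and tumor cells of mice with floxed *Brca1*, *Trp53* or both. The ribosome translates mRNA into protein and has a small (40S) and a large (60S) subunit, each made of ribosomal RNA and of proteins, most of them present in the same number and the stalk proteins Rplp1 and Rplp2 in more copies. The 40S subunit reads the mRNA, and the 60S subunit joins amino acids and carries the stalk, a pair of flexible arms that call in the translation factors. Ribosomal protein mRNAs usually begin with a pyrimidine tract, the 5′ terminal oligopyrimidine (TOP) motif, through which mTOR and Larp1 control their translation. In the mammary gland, the demand for protein synthesis rises as the alveoli grow in pregnancy and make milk proteins, and growing tumors also need ribosomes.

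Members were taken by their symbols alone (Rpl or Rps with a number and at most an a, x or y, together with Rplp0, Rplp1, Rplp2 and Rpsa), leaving out pseudogenes, a rule that uses no measured value. Among the genes analysed here this gave 70 of the 21004 in the table, 28 of the 40S subunit and 42 of the 60S subunit, of which 3 form the stalk. Genes of the family outside this rule, such as Rps3a1 and Fau, are given further on, and some genes that would meet it, such as Rps6, were not analysed here. All 70 genes passed the filter on low counts in each comparison, and each had reads in each of the 11 mice.

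The data were counts of sequencing reads per gene in cells captured one by one on 8 microfluidic chips, 312 luminal cells from 7 mice and 165 tumor cells from 4. All mice were females of mixed C57BL/6 and 129/Sv background with MMTV-Cre, which deletes floxed alleles in the mammary epithelium. The luminal mice also had the ROSA mT/mG reporter, which was not stated for each tumor mouse. The mice carried Brca1 fl/fl (Br), Trp53 fl/+ (53) or both (Br53), with Trp53 written as fl/fl in 1 place of the study's text, and no mouse without a floxed allele was analysed here. Luminal (L) cells, sorted as viable CD24Hi CD29Lo mGFP+, came from mice of 3 to 4 months that were virgin (v) or at day 12.5 of pregnancy (p). Tumor (T) cells, sorted as viable CD24+, came from mammary tumors of about 1 cm, with no age in the labels for the single hosts, and each tumor was 1 mouse. By the mouse identifiers in the labels, the group pBrL held 2 mice (pBrL-1 and pBrL-2) and each other group 1, so the 10 groups gave 3 virgin, 4 pregnant and 4 tumor mice. The cells of 1 mouse share their source, and the comparisons below therefore ran over mice.

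Depth per mouse was 40338926 to 115827852 reads. The 6 luminal markers summed to 7404 to 12856 CPM (read counts scaled to a total of 1000000 per mouse) in luminal mice and to 4319 to 6135 CPM in BrT2, Br53T1 and Br53T2, but to 633 CPM in BrT1, where *Krt19* and *Cdh1* had no read. The 6 fibroblast markers summed to 5038 CPM in BrT1, with all 6 having reads, against 0.117 to 712 CPM in the other 10 mice. The 6 basal markers summed to 5335 CPM in Br53T2 and to at most 375 CPM elsewhere. *Brca1* was at 1.70 to 57.2 CPM and did not separate the genotypes, and reads outside the deleted exons would still be counted. Within pBrL-1 and pBrL-2, cells at consecutive chip positions differed in *Rpl29* and *Rpl35a* (values further on). Results that rest on BrT1 are given with and without it, and the part of these markers in them was not tested.

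Before the values, 2 sets of sequences are given, of which the first bears on what the counts could and could not tell apart. The first set is from the coding sequence (GENCODE vM21 on GRCm38, the same assembly as mm10). For each gene, the stretch of 50 coding bases shared with the most other genes is printed, because a read that lies within it matches more than 1 gene.
Rpl7a: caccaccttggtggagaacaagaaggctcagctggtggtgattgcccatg
Rpl29: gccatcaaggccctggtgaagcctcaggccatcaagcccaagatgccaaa
Rpl23a: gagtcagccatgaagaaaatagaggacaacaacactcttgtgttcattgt
The stretch of *Rpl7a* (coding bases 429 to 478) occurred unchanged in 45 other genes, that of *Rpl29* (211 to 260) in 32 and that of *Rpl23a* (250 to 299) in 17.

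The second set is the region around the annotated transcription start (RefSeq, GRCm38.p6), with 15 bases before the start and the first 15 transcribed, and the longest run of C and T in capitals. The genes shown are a choice from those named further on.
Rpl7a: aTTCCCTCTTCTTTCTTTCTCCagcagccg
Rpl14: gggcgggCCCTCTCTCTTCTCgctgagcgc
Rps9: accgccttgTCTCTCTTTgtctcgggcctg
Rpl26: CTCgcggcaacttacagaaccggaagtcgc
Rpl15: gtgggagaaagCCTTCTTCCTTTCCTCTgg
Rps24: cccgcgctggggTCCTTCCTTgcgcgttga
Rpl38: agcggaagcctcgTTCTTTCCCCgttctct
Rplp0: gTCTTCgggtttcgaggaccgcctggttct
These windows lie at chr2:26910792-26910821 (+) for *Rpl7a*, chr9:120571502-120571531 (+) for *Rpl14*, chr7:3704026-3704055 (+) for *Rps9*, chr11:68901551-68901580 (+) for *Rpl26*, chr14:18270972-18271001 (-) for *Rpl15*, chr14:24490663-24490692 (+) for *Rps24*, chr11:114668565-114668594 (+) for *Rpl38* and chr5:115559452-115559481 (+) for *Rplp0*. The run spanned 21 bases in *Rpl7a*, 17 in *Rpl15*, 14 in *Rpl14*, 10 in *Rpl38* and 9 in *Rps9* and *Rps24*, while the windows of *Rplp0* and *Rpl26* held runs of 5 and 3. *Rps24* has 2 annotated starts, of which the first is shown. Of the 70 genes, 51 had an entry. A run of at least 6 C or T that came within 5 bases of the start was present in 27 of 51 (52.9%), against 23.04% of 27025 genes with an entry. Within 30 bases on either side of the start, the letters CTTTC on the transcribed strand were present in 41.2% of the 51 genes against 9.18% of all genes, and CTTCC in 35.3% against 14.4%. The letters CGGAAG, searched on both strands, were in 27.5% against 7.62%, and CTTCC and CGGAAG overlap on opposite strands. These matches are descriptions of the windows and were not related to the levels.

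The 70 genes together took 0.935% to 2.66% of the reads of a mouse. Among the virgin luminal mice, vBrL had 1.78%, vBr53L 2.66% and v53L 1.58%. In pregnant luminal mice it was 1.82% in pBrL-1, 2.13% in pBrL-2, 1.81% in pBr53L and 1.71% in p53L. Among the tumors, BrT1 had 0.935%, BrT2 2.08%, Br53T1 1.52% and Br53T2 1.59%. The highest share was thus in a virgin mouse and the lowest in a tumor, and the virgin, pregnant and tumor mice overlapped. The widest 95% Wilson interval of these shares spanned 0.00792 percentage points. It takes each read as independent, although PCR copies are counted separately, so it does not give the error of counting molecules. The share depends on the rest of the library, so fewer ribosomal protein transcripts and more of other transcripts cannot be told apart.

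The mean share was 1.53% ± 0.469 (SD, n = 4) in tumors and 2.04% ± 0.375 (SD, n = 5) in the *Brca1*-deficient luminal mice, and 1.73% ± 0.305 (SD, n = 3) in tumors without BrT1. Single cells spread widely within each mouse (plot of the share by cell). The share per cell ranged from 0.243% to 6.22%. The median cell was at 0.966% in BrT1 and 2.64% in vBr53L, and between 1.35% and 2.05% in the other 9 mice. In BrT1, the shares ran from 0.279% to 1.46%, 26 of 47 cells were under 1%, and 45 of 47 cells lay below the lowest median of the other mice. In vBr53L, 30 of 39 cells lay above the highest median of the other mice. BrT1 and vBr53L have the extreme medians, so a majority of their cells lay beyond these cuts by construction. The coefficient of variation over cells was 46.1% to 53.7% in BrT2, Br53T1 and Br53T2, 31.9% in BrT1, and 24.4% to 38.5% in 6 of the 7 luminal mice, with vBrL at 52.8%.

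**Figure D1:**
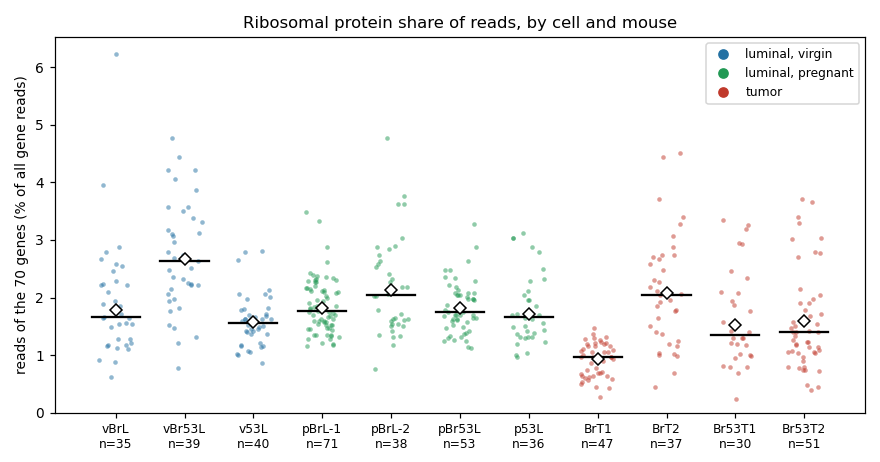
Reads of the 70 ribosomal protein genes as a percentage of all gene reads (vertical axis) for each cell (points), by mouse (horizontal axis, with the number of cells). Black lines are medians over cells and diamonds the share in the summed reads of the mouse; cells of BrT1 end at 1.46%, whereas vBr53L has the highest median at 2.64%.

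The levels of the genes were very unequal. *Rpl4*, whose protein lines the exit tunnel of the 60S subunit, had a mean of 2167 CPM over the 11 mice. Also among the 8 highest were *Rps3* (1690 CPM), *Rplp0* (1237 CPM), the base of the stalk, *Rpl8* (966 CPM), *Rps14* (877 CPM), *Rpl32* (789 CPM) and *Rpl41* (748 CPM). The 8 highest genes took 50.2% to 61.9% of the ribosomal protein reads of a mouse. At the other end were *Rpl23a* (2.18 CPM), *Rpl11* (8.53 CPM), *Rpl29* (8.56 CPM), *Rpl17* (8.91 CPM), *Rpl28* (9.78 CPM), *Rps12* (10.4 CPM), *Rpl38* (13.4 CPM) and *Rpl36a* (14.4 CPM), and 30 of the 70 genes had a mean under 50 CPM. Per kb of transcript, *Rpl41* was at the top with 1711 CPM per kb, with *Rpl32* (1527 CPM per kb) and *Rps14* (1469 CPM per kb) also high, and *Rpl23a* was at the bottom with 3.89 CPM per kb. The order of the 70 genes differed little between mice: over the 55 pairs of mice, Spearman's rho across genes was 0.875 to 0.980, with sequence and library method shared by all points.

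The levels also followed how much of each transcript is unique to its gene. Ribosomal protein genes have left many processed pseudogenes in the genome, and 69 of the 70 genes shared at least 1 stretch of 50 bases with a pseudogene, with a median of 8 pseudogenes. *Rpl7a* shared stretches with 120 pseudogenes, and *Rpl29* and *Rpl21* with 81 each. Across the genes, CPM per kb was higher where more of the stretches were unique (Spearman's rho 0.43 over 70 genes) and lower with more pseudogenes (rho -0.47). The 12 genes with the most unique stretches had a median of 869 CPM per kb, the 29 in the middle class 142 CPM per kb and the 29 with the fewest 52.9 CPM per kb. How the counting treated reads with several places was not stated, and its part in these levels was not tested. So the tests below compare the same gene between mice, and levels of different genes set side by side are descriptions.

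**Figure D2:**
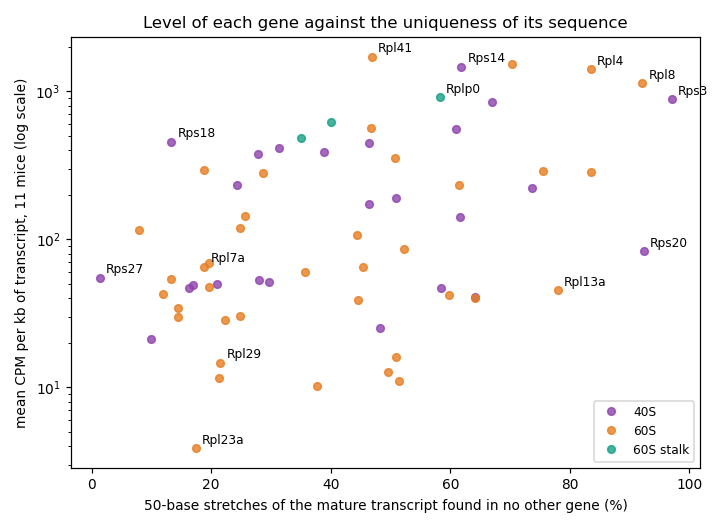
Mean CPM per kb of transcript over 11 mice (vertical axis, log scale) against the percentage of 50-base stretches of the mature transcript that occur in no other gene (horizontal axis), for the genes reported here (points, colored by subunit). *Rpl23a*, with 17.4% unique stretches, is the lowest, and *Rpl41*, at 1711 CPM per kb, the highest.

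Detection in single cells followed the levels. After each cell was thinned to 100000 reads, which left out 0 cells, 39 of the 70 genes had a read in at least 90% of the cells and 1 gene in under 10%. *Rpl32*, *Rpl41*, *Rplp1* and *Rps14* had a read in 100% of the cells (exact 95% binomial interval 99.2% to 100%). *Rpl29* had a read in 77 cells (16.1%, interval 12.95% to 19.8%) and *Rpl23a*, the rarest, in 45 (9.43%, interval 6.96% to 12.4%). Without thinning, these 2 genes had a read in 52.6% and 54.7% of cells. The intervals take the pooled cells as independent, although cells of the same mouse share their source. Cells with over 20 CPM of *Rpl29* were mostly those of pBrL-1 and pBrL-2 (further on). The median cell had 53 to 59 of the 70 genes detected in every mouse after thinning, and BrT1 (53) was within 3 genes of 4 of the other mice.

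Within mice, both subunits moved together. Across the cells of a mouse, the share of 40S reads and the share of 60S reads were correlated with a Spearman's rho of 0.732 to 0.968 in the 11 mice. The ratio of 60S to 40S reads was 1.06 to 1.22 in the 7 luminal mice, 1.18 in Br53T1, 1.21 in Br53T2 and 1.32 in BrT2, but 1.64 in BrT1. The share per cell had a rho of -0.390 to 0.139 with the number of detected genes and of -0.413 to 0.266 with the reads per cell, each negative in 9 of 11 mice, and of -0.390 to 0.191 with the CPM of 12 cell cycle genes. It rose with the CPM of 23 other genes whose mRNAs are reported to carry a TOP motif (a list of 24 given further on, here without *Vim*), mostly elongation and initiation factors, in 11 of 11 mice (rho 0.448 to 0.892). These are descriptions over 30 to 71 cells of 1 mouse, which share a chip, depth and total.

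Whether ribosomal protein genes differ between tumors and luminal cells was asked by comparing the 4 tumors with the 5 *Brca1*-deficient luminal mice. Of the 70 genes, 58 were lower in tumors and 12 higher, with a median log2 fold change of -0.49. Over all 12978 genes tested, 47.4% were lower and the median was 0.06. No ribosomal protein gene passed an adjusted p under 0.05 in edgeR's quasi-likelihood test, where 79 genes (0.609%) did. The smallest adjusted p among the 70 was 0.194. At an unadjusted p under 0.05, 12 of the 70 genes (17.1%) were lower and 0 higher, beside 5.80% of all genes lower and 7.98% higher. Those 12 became 5 without vBr53L, 7 without BrT1, 8 without Br53T1, 20 without BrT2, and 3 and 7 against only the pregnant or only the virgin luminal mice. Over all genes and in either direction, 1782 of 12865 passed without vBr53L, 1821 of 13433 without BrT1 and 1835 of 13572 without Br53T1. The all-gene count was 1781 of 13621 without BrT2, and 1820 of 13598 and 1278 of 14021 against the pregnant or the virgin luminal mice. DESeq2 called 1 of the 70, *Rpl29*, on the lower side, beside 6.23% of all genes in either direction and 2.38% lower. The 40S genes had a median of -0.60 (23 of 28 lower) and the 60S genes of -0.44 (35 of 42 lower), a gap that was not present in each tumor (values by tumor further on). Without BrT1, 55 of 70 were on the lower side with a median of -0.42. The chips of BrT1, BrT2 and Br53T1 held no luminal mouse, so that chip and tissue cannot be told apart for them. On chip SC6, which held both, 51 of 70 genes were lower in Br53T2 than in pBrL-2 (median log2 ratio -0.34, all genes 0.07), 1 mouse against 1 with no test.

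In 6 of the 70 genes (8.57%) all 4 tumors were below all 5 luminal mice, against 2.51% of all genes tested, and in 0 of 70 all tumors were above, against 5.01%. *Rpl7a*, a 60S protein, was at 84.3 CPM in vBrL, 73.96 in vBr53L, 71.8 in pBrL-1, 76.7 in pBrL-2 and 55.4 in pBr53L, and at 39.8, 47.8, 28.5 and 51.0 CPM in the tumors BrT1, BrT2, Br53T1 and Br53T2 (log2 fold change -0.92). It shares sequence with more pseudogenes than any other of the 70. *Rps20*, a 40S protein, was at 429, 395, 327, 393 and 304 CPM in these luminal mice and at 119, 190, 228 and 296 CPM in the tumors (log2 fold change -0.96). Here Br53T2 came close to the lowest luminal mouse, while BrT1 was farthest. *Rps9* was at 663, 1183, 637, 796 and 658 CPM and at 156, 450, 577 and 497 CPM (log2 fold change -1.04). *Rpl26* was at 160, 333, 117, 157 and 194 CPM and at 34.4, 114, 110 and 110 CPM (log2 fold change -1.19), so that the tumors other than BrT1 lay just under pBrL-1. *Rpl14* (luminal 365 to 653 CPM, tumors 109.2 to 336 CPM) was also among them. None of the 6 passed the test, with edgeR adjusted p from 0.194 to 0.310.

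Among the largest decreases were those in *Rpl29* (log2 fold change -3.89, SE 1.53), *Rps27a* (-1.34, SE 0.52), *Rpl26* and *Rps15a* (-1.15, SE 0.44), with edgeR adjusted p of 0.261 to 0.286. *Rps27a* encodes its 40S protein fused to ubiquitin. The value of *Rpl29* rested on pBrL-1 and pBrL-2, since the other 3 luminal mice were at 0.691 to 0.837 CPM and the tumors at 0.982 to 1.62 CPM. Against the virgin luminal mice alone its log2 fold change was 0.59. The 5 largest increases were in *Rpl38* (0.87, SE 0.59), *Rps24* (0.54, SE 0.65), *Rps27* (0.34, SE 0.57), *Rpl36a* (0.30, SE 0.51) and *Rpl30* (0.27, SE 0.48), none past the test (adjusted p of 0.556 to 0.860). For *Rps24* the direction rested on BrT2, and without that tumor the log2 fold change was -0.74. *Rpl38*, a 60S protein needed for the translation of Hox mRNAs, was at 12.7, 25.2, 22.3 and 12.4 CPM in tumors and at 5.62 to 13.3 CPM in the luminal mice.

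**Figure D3:**
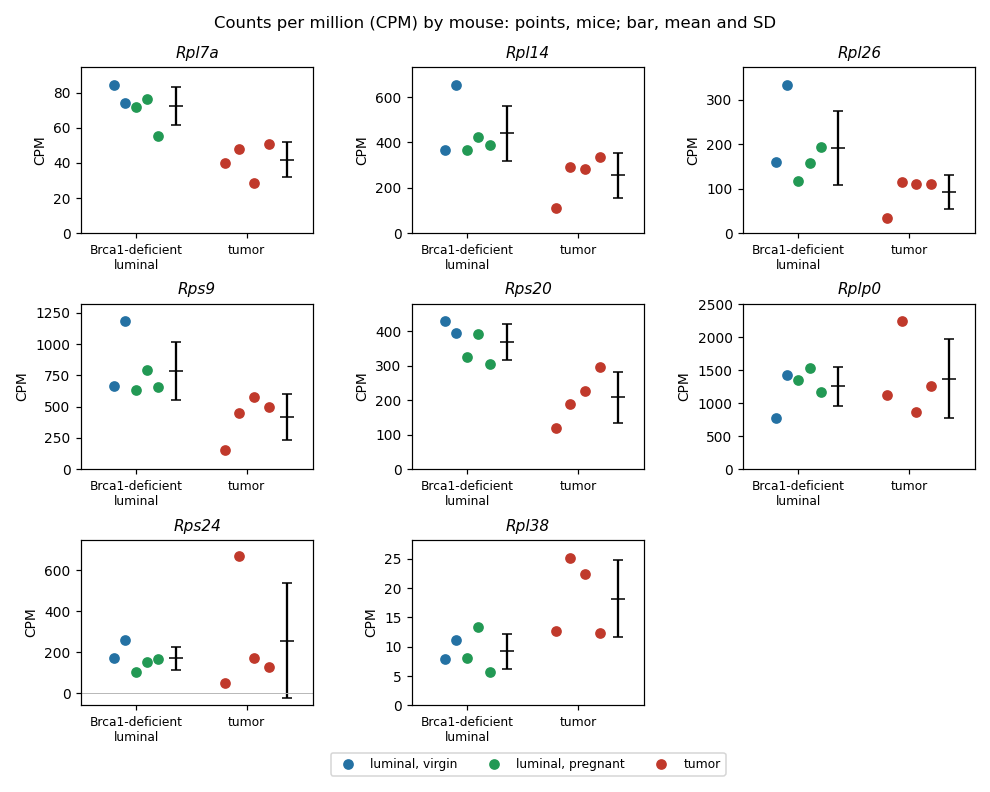
CPM (vertical axes) of 8 genes in the 5 *Brca1*-deficient luminal mice and the 4 tumors (points, with the tumors in the order BrT1, BrT2, Br53T1, Br53T2), with the mean and SD of each arm. The arms do not overlap for *Rpl7a*, *Rpl14*, *Rpl26*, *Rps9* and *Rps20*, *Rplp0* and *Rps24* have 1 tumor (BrT2, 2241 and 668 CPM) far above the others, and *Rpl38* overlaps.

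The 4 tumors were then taken one by one. Set against the mean of the *Brca1*-deficient luminal mice on the scale of log2(CPM + 1), 60 of the 70 genes were lower in BrT1 (median -0.95), while BrT2 had 42 lower (-0.09), Br53T1 46 (-0.40) and Br53T2 48 (-0.27). In BrT1, 33 of the 70 genes (47.1%) were more than 1 log2 unit lower, beside 20.0% of all genes tested, and in BrT2, Br53T1 and Br53T2 4, 7 and 3 of 70, beside 20.8%, 15.6% and 12.2% of all genes. BrT1 had the lowest value of all mice in 40 of the 70 genes and vBr53L the highest in 29. The decrease in BrT1 was uneven. The median was -1.38 for the 40S genes and -0.77 for the 60S genes, whereas these medians were -0.16 and 0.0057 in BrT2, -0.37 and -0.44 in Br53T1 and both -0.27 in Br53T2, so that the gap between the subunits was largest in BrT1 and turned in Br53T1. *Rpl32* was at 156 CPM there against 643 to 1512 CPM in the other 10 mice, and *Rps4x*, the X-linked 40S gene, at 90.97 CPM against 199 to 952 CPM. *Rplp0* was at 1130 CPM, within the luminal range of 781 to 1530 CPM, and *Rps12* had its highest level of all mice there, 24.1 CPM. BrT1 was also the tumor with the fewest reads of luminal markers and the most of fibroblast markers (above). The low level was present among genes of all uniqueness classes, with medians of -0.63, -0.96 and -1.13 against the 7 luminal mice from the least to the most unique class.

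**Figure D4:**
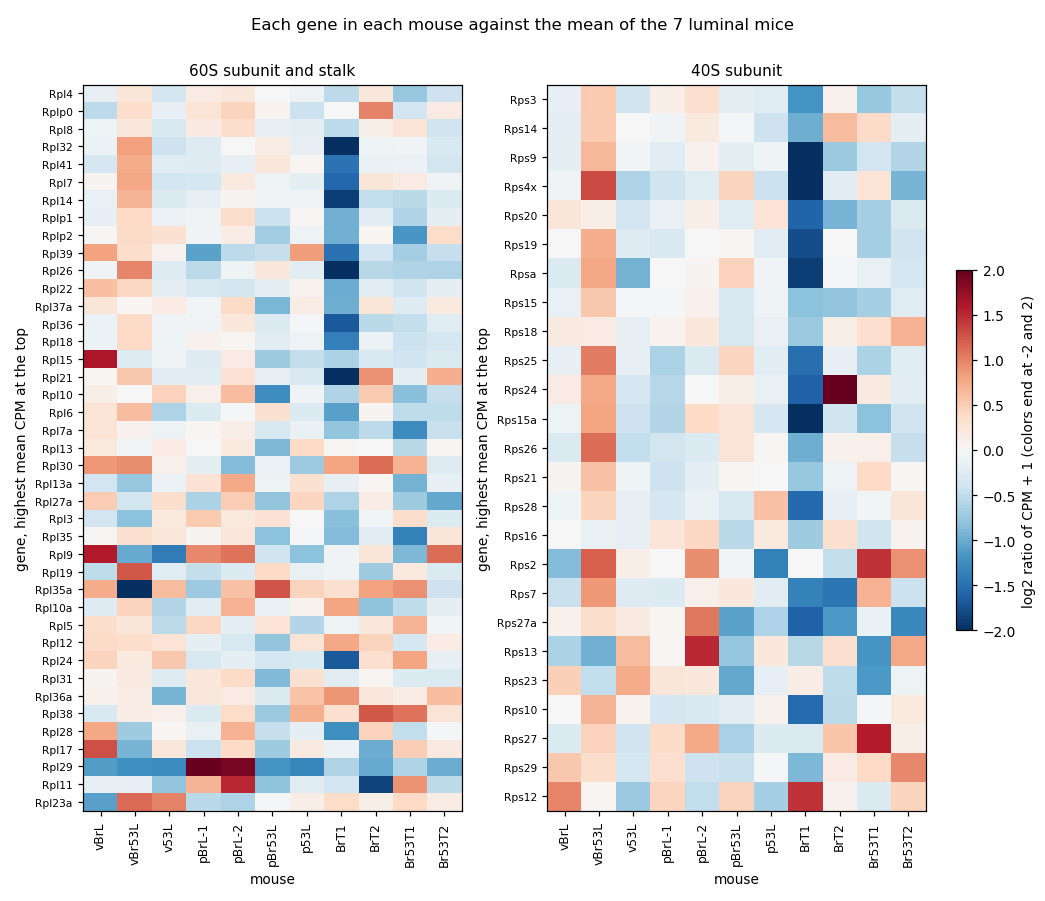
Log2 ratio of CPM + 1 in each mouse (columns) to the mean of the 7 luminal mice for the genes of the 60S and the 40S subunit reported here (rows, highest mean CPM at the top), with red higher and blue lower and colors ending at -2 and 2. The BrT1 column is mostly blue and the vBr53L column mostly red, with single dark cells such as *Rps24* in BrT2, *Rpl15* in vBrL and *Rpl29* in pBrL-1 and pBrL-2.

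Several genes stood apart in 1 or 2 mice, and single cells showed whether many cells carried this (plot of these genes by cell). *Rps24*, a 40S gene mutated in Diamond-Blackfan anemia, was at 668 CPM in BrT2 and at 48.8 to 259 CPM in the other 10 mice. In BrT2 its median over cells was 636 CPM and the top cell held 6.62% of its reads, so nearly the whole tumor sample was high. *Rpl29* was at 71.6 CPM in pBrL-1, 13.8 CPM in pBrL-2 and 0.611 to 1.62 CPM in the other 9 mice. Over 20 CPM of it was found in 49 of 71 cells of pBrL-1 and in 6 of 38 cells of pBrL-2, 0 cells of the other 5 luminal mice and 1 cell of each tumor. These cells were consecutive in the chip positions given by the labels. In pBrL-1, the 49 cells from position 46 to 96 had 21.2 to 258 CPM of *Rpl29* and the 22 cells from position 21 to 45 had 0 to 5.44 CPM. In pBrL-2, the 6 cells at positions 58 to 63 had 39.4 to 143 CPM and the 32 at positions 64 to 96 had 0 to 3.62 CPM. *Rpl35a* was low where *Rpl29* was high, with over 20 CPM in 4 of the 49 and 0 of the 6 cells, against 9 of the 22 and 25 of the 32. The cause of these runs was not tested. With both pBrL mice summed as 1 mouse, chosen after seeing the data, 0 of the 70 genes were called in the comparisons that include them. *Rpl35a*, another gene of that anemia, was at 2.18 CPM in vBr53L and at 13.8 to 56.9 CPM in the other 10 mice, and 0 of 39 cells of vBr53L passed 20 CPM, against a range from 7 of 47 in BrT1 to 28 of 35 in vBrL over the others. *Rpl15* was at 293 CPM in vBrL and at 57.8 to 106.4 CPM elsewhere, but there the median cell had 63.02 CPM and 3 of 35 cells held 42.1% of the reads. These genes were chosen after their values were seen.

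**Figure D5:**
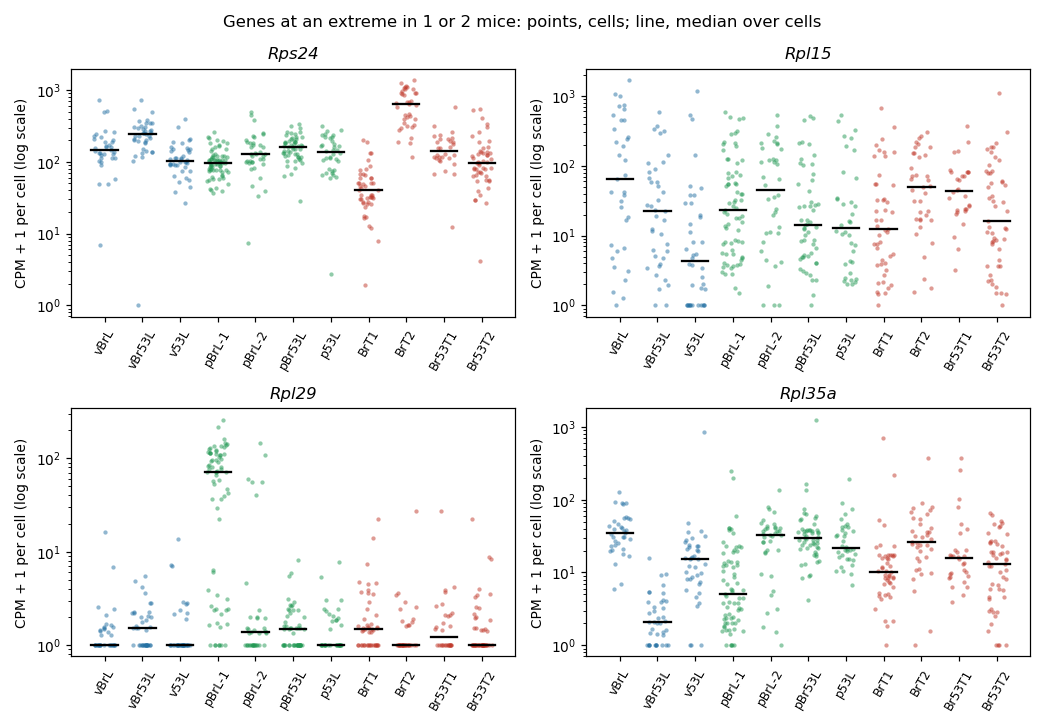
CPM + 1 per cell (vertical axes, log scale) of 4 genes in the cells (points) of the 11 mice (horizontal axes), with the median over cells as a line. *Rps24* is high in nearly all cells of BrT2 (median 636 CPM), *Rpl29* in most cells of pBrL-1 and 6 cells of pBrL-2, *Rpl35a* is low throughout vBr53L, and *Rpl15* spreads widely in all mice.

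The genes whose part of the ribosomal protein reads was most variable over mice were *Rpl29* (SD of log2 share 2.06), *Rpl35a* (1.47), *Rpl9* (1.10), *Rpl23a* (1.10) and *Rpl11* (1.10), all of the 60S subunit and, except *Rpl35a* and *Rpl9*, among the 8 lowest in level. Among the most even were *Rpl18* (0.16), *Rps3* (0.17) and *Rplp1* (0.20). *Rpl4* took 8.97% to 17.3% of the ribosomal protein reads, with the most in BrT1.

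Whether pregnancy alters these genes was asked in the 7 luminal mice, with genotype in the model. Of the 70 genes, 49 were lower and 21 higher in pregnant mice, with a median log2 fold change of -0.12, where all 12615 genes tested had a median of 0.12 and 44.8% lower. None was called by edgeR, beside 2 genes of all (0.0159%), and the smallest adjusted p was 0.484. DESeq2 called 0 of the 70 and 7.67% of all genes. The direction of the median rested on the Br53 pair, and without vBr53L or without pBr53L it was 0.08. At an unadjusted p under 0.05, 2 of the 70 genes (2.86%) were lower and 0 higher, beside 4.67% and 5.07% of all genes.

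These 2 were *Rpl30* and *Rpl15*. *Rpl30*, a 60S gene, was at 70.1, 73.04 and 40.3 CPM in the virgin mice vBrL, vBr53L and v53L, and at 33.5 in pBrL-1, 20.3 in pBrL-2, 34.8 in pBr53L and 22.5 in p53L (log2 fold change -1.08, SE 0.43, edgeR adjusted p = 0.484). All 4 pregnant mice lay under all 3 virgin mice, as they did for *Rpl24* (virgin 21.5 to 27.5 CPM, pregnant 14.4 to 16.4 CPM, log2 fold change -0.68, adjusted p = 0.770). In tumors, however, *Rpl30* was at 31.5 to 83.2 CPM. *Rpl15* (-0.90, SE 0.37, edgeR adjusted p = 0.498) was at -0.37 without vBrL. *Rpl13a*, which leaves the ribosome to silence inflammatory mRNAs upon interferon-γ, was the single gene with all pregnant mice above all virgin mice (45.1 to 83.3 CPM against 28.5 to 44.8 CPM, log2 fold change 0.75, SE 0.39, adjusted p = 0.599). For all genes tested, arms without overlap were found in 5.58% with the pregnant mice lower and 6.32% higher. The other large differences were -0.68 in *Rpl39*, -0.59 in *Rpl12*, 0.58 in *Rps13*, 0.59 in *Rpl35a*, 0.64 in *Rpl3* and 1.57 in *Rpl29*, with overlapping arms and adjusted p of 0.709 to 0.909. For *Rpl29*, high in pBrL-1 and pBrL-2 alone, it was 0.077 without vBrL and 3.08 to 3.12 without vBr53L, v53L, pBr53L or p53L.

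Within the chips that held both stages, the pairs went opposite ways. On chip SC7, 60 of the 70 genes were lower in pBr53L than in vBr53L (median log2 ratio -0.63). On chip SC9, 43 of 70 were higher in p53L than in v53L (median 0.08). In the Br genotype, with different chips, 40 of 70 were lower in pBrL-1 than in vBrL (median -0.09) and 43 of 70 higher in pBrL-2 (median 0.15). Over all genes, the medians of these pairs were 0.02, 0, 0.03 and 0.08 in the same order. Each of these pairs is 1 mouse against 1, with no test. Milk protein genes took 3.63% to 4.40% of the reads in virgin and 10.1% to 18.2% in pregnant mice. Left out of the total, they raised the ribosomal protein share to 1.65% to 2.76% in virgin and 2.09% to 2.37% in pregnant mice, so the mean difference turned from -0.138 to 0.075 percentage points, both smaller than the SD of 0.577 over virgin mice.

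Neither genotype comparison called a ribosomal protein gene. Between the 5 *Brca1*-deficient and the 2 53 luminal mice, with stage in the model, 39 of 70 were higher (median log2 fold change 0.10, all 13709 genes 0.08). edgeR called 0 of all genes (0%) and 0 of the 70 had an unadjusted p under 0.05, beside 5.52% of all genes, and DESeq2 called 0 of the 70 and 4.72% of all genes. Chip and genotype cannot be told apart here. In 7 of the 70 (10.0%, all genes 8.21%) the *Brca1*-deficient mice were all above both 53 mice, and in 0 of 70 all below (all genes 3.12%). Among them was *Rps4x* with 365 CPM in vBrL, 952 in vBr53L, 290 in pBrL-1, 322 in pBrL-2 and 518 in pBr53L against 249 in v53L and 282 in p53L (log2 fold change 0.70, SE 0.31, edgeR adjusted p = 0.839). The 2 mice that were highest for it were both Br53. The others were *Rpl29* (2.22, SE 1.64), *Rps12* (1.04, SE 1.124), *Rpl5*, *Rpl6*, *Rpl8* and *Rps3*. For *Rpl29*, where pBrL-1 and pBrL-2 alone were high, leaving out a mouse gave 0.62 (vBr53L) to 3.84 (v53L), with 0.75 without p53L and 1.39 without pBrL-1. *Rpl9* (1.26, SE 0.58), *Rps2* (0.88, SE 0.75) and, on the lower side, *Rpl23a* (-1.22, SE 1.78), *Rps13* (-0.91, SE 0.68), *Rpl39* (-0.87, SE 0.49), *Rpl38* (-0.79, SE 0.94) and *Rpl27a* (-0.74, SE 0.46) also had large differences but overlapped.

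Between the 2 Br53 and the 2 Br tumors, 43 of 70 genes were higher in Br53 (median 0.10, where 50.1% of all 13477 genes were lower). edgeR called 0 genes of all (0%) and 0 of the 70 reached an unadjusted p of 0.05, beside 3.98% of all genes, and DESeq2 called 0 of the 70 and 2.34% of all genes. With 2 mice a side this depended on each tumor: the median was -0.32 without BrT1 and 0.82 without BrT2. In 12 of the 70 genes (17.1%) both Br53 tumors were above both Br tumors and in 4 (5.71%) below, beside 19% and 12.9% of all genes. The largest differences without overlap were in *Rps7*, whose protein can bind Mdm2, and *Rps2*. *Rps7* was at 72.9 and 32.7 CPM in Br53T1 and Br53T2 and at 16.9 and 15.5 CPM in BrT1 and BrT2 (log2 fold change 1.63, SE 0.84). *Rps2* was at 103.4 and 71.3 CPM against 37.4 and 26.5 CPM (1.39, SE 0.69), and *Rps10* (0.97, SE 1.06) and *Rps29* (0.92, SE 1.11) also stood above. *Rpl12* (-0.79, SE 0.93) and *Rpl27a* (-0.79, SE 0.80) stood below. Here the adjusted p was 1.00 for each of the 70 genes. *Rpl11* (1.49, SE 1.66), *Rps24* (-1.40, SE 1.20), *Rps12* (-0.90, SE 1.28) and *Rpl10* (-0.83, SE 0.73) overlapped, and *Rps24* turned to 1.64 without BrT2.

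The genes were also set beside the other genes of their chromosome. The 70 genes lie on 19 chromosomes, with 14 on chromosome 7. In BrT1 the other genes of chromosome 7 had the lowest mean of the 19, a log2 ratio to the luminal mean of -0.32 against 0.25 over all other genes, and the 14 genes there, among them *Rps3* and *Rps9*, had a median of -1.21 against -0.93 for all 70. In BrT2 chromosome 4 was lowest (other genes -0.43, over all 0.10), and its 3 genes, *Rps20*, *Rpl11* and *Rpl22*, had a median of -0.92 against 0.01 for all 70. In Br53T1 chromosome 13 was lowest (-0.25, over all 0.32) and its single gene, *Rps23*, was at -1.15 against -0.36. In Br53T2 chromosome 11 was the lowest of the 19 (0.24, over all 0.42) and its 5 genes had a median of -0.29 against -0.22. Over the 19 chromosomes, the median of the ribosomal protein genes and the mean of the other genes had Spearman's rho values of 0.60, 0.66, 0.63 and 0.22 for BrT1, BrT2, Br53T1 and Br53T2. These points share the library and its scaling, and 1 to 14 genes stand behind each.

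Relatives of the family outside the rule were also examined. *Rack1*, the scaffold on the head of the 40S subunit, was at 1310 to 2634 CPM in luminal mice and at 498 to 1891 CPM in tumors (log2 fold change in tumors -0.91, SE 0.41, edgeR adjusted p = 0.353). *Fau*, which encodes a 40S protein fused to a ubiquitin-like one, was at 14.1 to 91.02 CPM. *Rps3a1* was at 33.1 to 465.9 CPM. Of the paralogs, *Rps27l*, a p53 target, was at 129 to 262 CPM in luminal mice and 76.3 to 141 CPM in tumors (-0.82, SE 0.31, adjusted p = 0.260). *Rpl36al* was at 72.5 to 138 CPM and 31.8 to 78.8 CPM (-1.06, SE 0.36, adjusted p = 0.218), *Rpl22l1* at 33.6 to 137 CPM over all mice and *Rpl7l1* at 42.7 to 147 CPM. *Rpl39l*, *Rpl3l* and *Rps4l* reached at most 4.90, 1.03 and 9.02 CPM, and *Rpl10l* had no read. The pseudogene *Rpl14-ps1* had 498 to 1545 CPM and its parent *Rpl14* 109.2 to 653 CPM, and reads from the stretches that both share cannot be told apart.

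Of the genes that make or control ribosomes, 0 were called by edgeR in any of the 4 comparisons. Few genes were called at all, 0.609% of all genes for tumors, 0.0159% for pregnancy and 0% for each genotype comparison. Fold changes that follow are those in tumors unless stated. The 40 genes of ribosome biogenesis, such as *Ncl* (log2 fold change -0.43), *Npm1* (-0.75) and *Gnl3* (0.29), had a median of -0.16 with 26 lower. The 14 genes of RNA polymerase I and its factors, which transcribe ribosomal RNA, had a median of -0.30 with 9 lower. The 22 tested regulators of the mTOR and Myc pathways had a median of -0.09 with 12 lower, among them *Myc* (-0.43, SE 0.38), *Larp1* (-0.49, SE 0.49) and *Eif4e* (-0.35, SE 0.37). The 24 other genes with TOP mRNAs had a median of -0.55 with 20 lower, including *Eef1a1* (-0.76, SE 0.42), the elongation factor that delivers tRNA, *Eef2* (-0.65, SE 0.28) and *Eif3l* (-1.24, SE 0.26, edgeR adjusted p = 0.056). At the other end of that list was *Vim*, an intermediate filament gene of mesenchymal cells, at 6.90 (SE 1.63, adjusted p = 0.080). The 77 tested mitochondrial ribosomal proteins had a median of -0.09 with 45 lower, and 73 nuclear subunits of oxidative phosphorylation one of -0.38 with 60 lower. In BrT1, where cytosolic ribosomal protein genes were lowest, the mitochondrial ones summed to 5845 CPM, against 2825 to 4778 CPM in the other mice, and the biogenesis genes to 6015 CPM against 3256 to 5585 CPM. In pregnancy, 61 of 77 mitochondrial ribosomal proteins (median 0.33) and 30 of 40 biogenesis genes (median 0.23) were on the higher side. Over all genes tested the median was 0.12, with 44.8% lower. Of the 70 cytosolic ribosomal protein genes 21 were higher, but 40 were without vBr53L and 40 without pBr53L. The lists were not tested against each other.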

How the data were processed

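The authors captured cells on Fluidigm C1 chips, made full-length cDNA with the SMARTer kit and Nextera XT libraries, and sequenced paired ends with 60, 100 or 125 cycles (which chip had which was not given). Per the labels and methods, reads were filtered with sickle, trimmed with Trim Galore 0.4.1, aligned to mm10 with STAR 2.5.3a and counted with Subread 1.5.3. What the authors deposited is 1 table of raw read counts, genes by cells, without molecular identifiers. The annotation, use of strand and treatment of multi-mapping reads were not stated.

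For each mouse, the counts of its cells were added up. All genes entered the quasi-likelihood test of edgeR 4.0.16 in R 4.3.3 after filterByExpr and with TMM scaling, with Benjamini-Hochberg adjustment over all genes tested and calls at 0.05. DESeq2 1.42.0 and limma 3.58.1 were alternatives; simulated counts were used to check the edgeR fit. Nothing says that same-numbered samples belong together. P-values measure the spread between these mice, and most groups hold 1 mouse. Levels are CPM, the counts scaled to 1000000 reads, and ratios per mouse used log2(CPM + 1). Intervals cover counting error only and take reads or cells as independent, and PCR copies are counted separately. Sequence stretches of 50 bases were compared over all transcripts of GENCODE vM21, in which 20919 of 21004 symbols matched, with the shortest principal coding transcript for each gene. All cell columns were mapped by name and used, and no doublets were called here, since the authors inspected the capture sites by microscope. Some genes are not reported here. The members and lists were chosen with earlier results of these data known. Named genes were, for each comparison, those called, or else 5 per direction by fold change, those highest, lowest, most and least variable in level or share, those on the most shifted chromosomes, listed relatives, and leading genes of the other lists.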

Additional observations from a re-analysis of the deposited data

Results flagged for a closer look

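The share of reads in the 70 genes differed in direction with pregnancy between genotypes. It was lower by 0.852 percentage points in the Br53 pair (pregnant minus virgin -0.852), and higher by 0.135 in the 53 pair and by 0.0409 and 0.349 for the 2 pregnant Br mice against vBrL. The difference was not tested, since the Br53 and 53 pairs hold 1 mouse per stage.

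Of 44 sets of 4 or 5 mice examined for a mouse far from the others by Dixon's criterion, 3 held one, and chance gives about 1 in 20. In the tumors, *Rpl26* was at 34.4 CPM in BrT1 with the nearest tumor at 110 CPM. In the *Brca1*-deficient luminal mice, *Rpl29* was at 71.6 CPM in pBrL-1 with the nearest at 13.8 CPM (in both mice carried by a run of cells at consecutive chip positions), and *Rps13* at 74.5 CPM in pBrL-2 with the nearest at 26.1 CPM. In pBrL-2, 3 of 38 cells held 55.2% of the *Rps13* reads.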

How the results depend on the processing

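The count of 0 ribosomal protein genes called held in the 4 comparisons under all settings tried (RLE or library size scaling, no low-count filter, 30 cells per mouse, cells with at least 2000 detected genes, limma on mean CPM, milk protein genes removed, other covariates or luminal arms, without each mouse, and, added after seeing the data, both pBrL mice summed as 1), except that DESeq2 called 1 gene in the tumor comparison, *Rpl29* (adjusted p = 0.031). Over all genes, DESeq2 called 808, 967, 315 and 647 for tumors, pregnancy, tumor genotypes and luminal genotypes, and edgeR without the low-count filter 129, 366, 295 and 0.575% of 18426 genes, against 79, 2, 0 and 0 genes. With both pBrL mice summed, edgeR called 17 genes for tumors, and 10 of the 70 had an unadjusted p under 0.05, beside 1511 of all 12821. For the tumor comparison, the median log2 fold change of the 70 genes was -0.67 to -0.41 without each mouse and -0.64 to -0.36 under the other settings. Without each mouse it was -0.27 to 0.08 for pregnancy, -0.32 to 0.82 between tumor genotypes and -0.13 to 0.33 between luminal genotypes. Where this left 1 mouse in an arm, that mouse was assumed to vary like the others. The difference in the share of reads, with leaving out each mouse added after seeing the data, was -0.69 to -0.31 percentage points for tumors, -0.35 to 0.19 for pregnancy, -0.53 to 0.62 between tumor genotypes and 0.24 to 0.47 between luminal genotypes.

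Of the named genes, 5 changed sign under another setting than leaving out a mouse, with the cause not tested unless stated: in tumors, *Rpl29* (0.59) and *Rpl30* (-0.38) against virgin luminal mice only, which leaves out the pregnant mice, and *Rps24* with limma (-0.013); in pregnancy, *Rpl39* (0.052) and *Rps13* (-0.029) with chip in place of genotype. Leaving out a mouse turned the sign in 10 cases, with ranges of -0.015 to 0.49 for *Rpl30*, -0.15 to 0.57 for *Rps27* and -0.74 to 0.89 for *Rps24* in tumors, -1.26 to 0.021 for *Rpl39*, -0.061 to 1.02 for *Rps13* and -0.46 to 2.30 for *Rpl35a* in pregnancy, -2.31 to 1.64 for *Rps24* between tumor genotypes, and -1.71 to 0.42 for *Rpl39* and -0.013 to 0.31 for *Rpl8* between luminal genotypes. No paired analysis was possible because the replicate numbers only name cells, apart from a block by chip, which some mice share. With chip in place of genotype for pregnancy 0 of the 70 and 42 of all genes were called. At 1 mouse in most groups and a median SE of 0.38 to 0.80 (log2) per gene, changes of the size of the medians could not be resolved gene by gene. Most of the genes have pseudogene copies, whose part in this was not tested.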

Other observations

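Across the cells of each tumor, the share of reads in ribosomal protein genes rose with the CPM of 73 nuclear subunits of oxidative phosphorylation, with Spearman's rho values of 0.734, 0.753, 0.855 and 0.742 for BrT1, BrT2, Br53T1 and Br53T2. In the luminal mice rho was -0.303 to 0.561. The points are cells that share a chip and a total, and the difference between tumors and luminal mice was not tested.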
